A study of Mus musculus with 6 samples.

Results

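The genes of the cytosolic ribosomal proteins were compared between haploid and diploid mouse embryonic stem (ES) cells. A gene was included when a probe set of the array carried it as its single symbol and the symbol was Rpl or Rps followed by digits and at most the letter a or x, or was Rplp0, Rplp1, Rplp2 or Rpsa. This rule gave 94 probe sets of 42 genes, among 18193 genes in all, and each gene was represented by its probe set with the highest mean over the 6 arrays. They code for 22 proteins of the large and 20 of the small ribosomal subunit. Another 27 symbols of this form stood only on probe sets that also carried other symbols, and were not named here.

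RNA came from 3 haploid lines, which carry a single set of chromosomes, and 3 diploid samples, with 1 Affymetrix array each. Haploid replicates 1 and 2 were the lines HAP1 at passage 24 and HAP2 at passage 21, both labelled F1 CBAxB6, and haploid replicate 3 was HTG1 at passage 11, labelled mixed transgenic. The diploid arrays were labelled male, 129Sv for replicates 1 and 2 and 129 for replicate 3. All cells were grown in 2i medium, which blocks the kinases MEK and GSK3, and RNA was taken on day 2 after passaging. Strain and ploidy differed together and cannot be told apart. The labels call the diploid samples biological replicates without naming a line for each, and p-values measure the spread between arrays, which may be partly technical.

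The ribosome makes all proteins of the cell from a small subunit, which reads the messenger RNA, and a large subunit, which joins amino acids. Each subunit is an RNA core with a coat of proteins, most of them needed in equal numbers. Ribosomal protein messages are among the most abundant of a growing cell. Many of these messages begin with a run of C and U bases, the terminal oligopyrimidine (TOP) tract, through which mTOR and the RNA-binding protein Larp1 control their translation. ES cells divide fast, and are known for comparatively low rates of protein synthesis.

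To look for such a tract, RefSeq gene starts on GRCm38.p6 were read from 50 bases before to 25 bases after the annotated start. This was done for 8 chosen genes among those described here. The longest run of C and T that starts with C and has at least 5 bases is in capitals, and of runs of equal length the first one. The strand shown is the one that reads as the RNA.
Rps27, chr3:90213624-90213698, minus strand: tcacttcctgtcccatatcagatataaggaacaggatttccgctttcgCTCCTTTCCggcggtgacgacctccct
Rps6, chr4:86857343-86857417, minus strand: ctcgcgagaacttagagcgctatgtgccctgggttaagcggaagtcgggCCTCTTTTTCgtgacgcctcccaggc
Rplp2, chr7:141447601-141447675, plus strand: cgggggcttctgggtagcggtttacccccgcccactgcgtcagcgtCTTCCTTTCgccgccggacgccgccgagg
Rps9, chr7:3703991-3704065, plus strand: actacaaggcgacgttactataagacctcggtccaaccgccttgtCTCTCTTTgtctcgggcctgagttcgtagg
Rpl38, chr11:114668530-114668604, plus strand: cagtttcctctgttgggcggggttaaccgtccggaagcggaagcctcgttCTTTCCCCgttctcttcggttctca
Rpl37a, chr1:72711210-72711284, plus strand: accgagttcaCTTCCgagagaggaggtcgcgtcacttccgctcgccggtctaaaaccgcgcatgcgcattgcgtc
Rpl39, chrX:37085198-37085272, minus strand: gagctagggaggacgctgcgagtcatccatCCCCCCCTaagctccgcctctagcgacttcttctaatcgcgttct
Rps4x, chrX:102189367-102189441, minus strand: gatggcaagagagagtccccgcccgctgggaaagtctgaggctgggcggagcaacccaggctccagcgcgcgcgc

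In Rps27, Rps6, Rplp2, Rps9 and Rpl38 the run lay at the annotated start or within 5 bases of it. In Rpl37a and Rpl39 the marked run lay 40 and 20 bases before the start, but each window held a second run of equal length that is not marked. That run began 16 bases before the start in Rpl37a and at base 7 in Rpl39, with the start counted as base 1. The window of Rps4x held no run. RefSeq promoters matched 37 of the 42 genes, with 43 starts. A run of at least 8 pyrimidines that begins with C, within 25 bases on either side of the start, was found at 20 of the 43 starts (46.5%) and at 15.5% of all 32851 starts in the table. Over 300 bases and both strands, CCGGAAG, the core that ETS factors such as GABP bind, was found at 18 of the 43 (41.9%, against 8.86% of all starts). CTTTCC was found at 20 (46.5%, against 26.6%), GGGCGG, which Sp1 binds, at 23 (53.5%, against 35.7%) and TATATAA at 2 (4.65%, against 3.24%). AAGATGGC, the core that YY1 binds, was at 3 (6.98%, against 2.75%). A palindrome of 10 bases with the core TCGCGA, whose full letters are not printed, was at 6 starts (14%, against 0.466%). These matches describe letters near annotated starts, which can differ from the start used in ES cells.

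Most ribosomal protein genes differed little between haploid and diploid cells. Of the 42 genes 33 had means of 14 or above, where differences were small among all genes too (median size 0.079, 4% passing). Of the 42 genes 1 passed a limma adjusted p of 0.05 and it was higher in the haploid lines (2.38%), while 14.9% of all genes passed and 7.92% of all genes passed as higher. Over all genes 1441 were higher and 1266 lower, or 1134 and 1605 with the median shift of each chromosome subtracted. The median log2 difference, haploid minus diploid, was 0.027 over the 42 genes and -0.029 over all genes, and the median size of the difference regardless of sign was 0.069 and 0.20. With chromosome shifts subtracted the median of the 42 genes was -0.05, so its sign depends on that choice. For 28 of the 42 genes the difference was under 0.1. The large subunit had a median difference of 0.022 with no gene passing, and the small subunit 0.035 with 1 passing. At an unadjusted p of 0.05, 6 of the 42 genes were past the threshold, all with higher haploid values, against 31.2% of all genes.

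**Figure D1:**
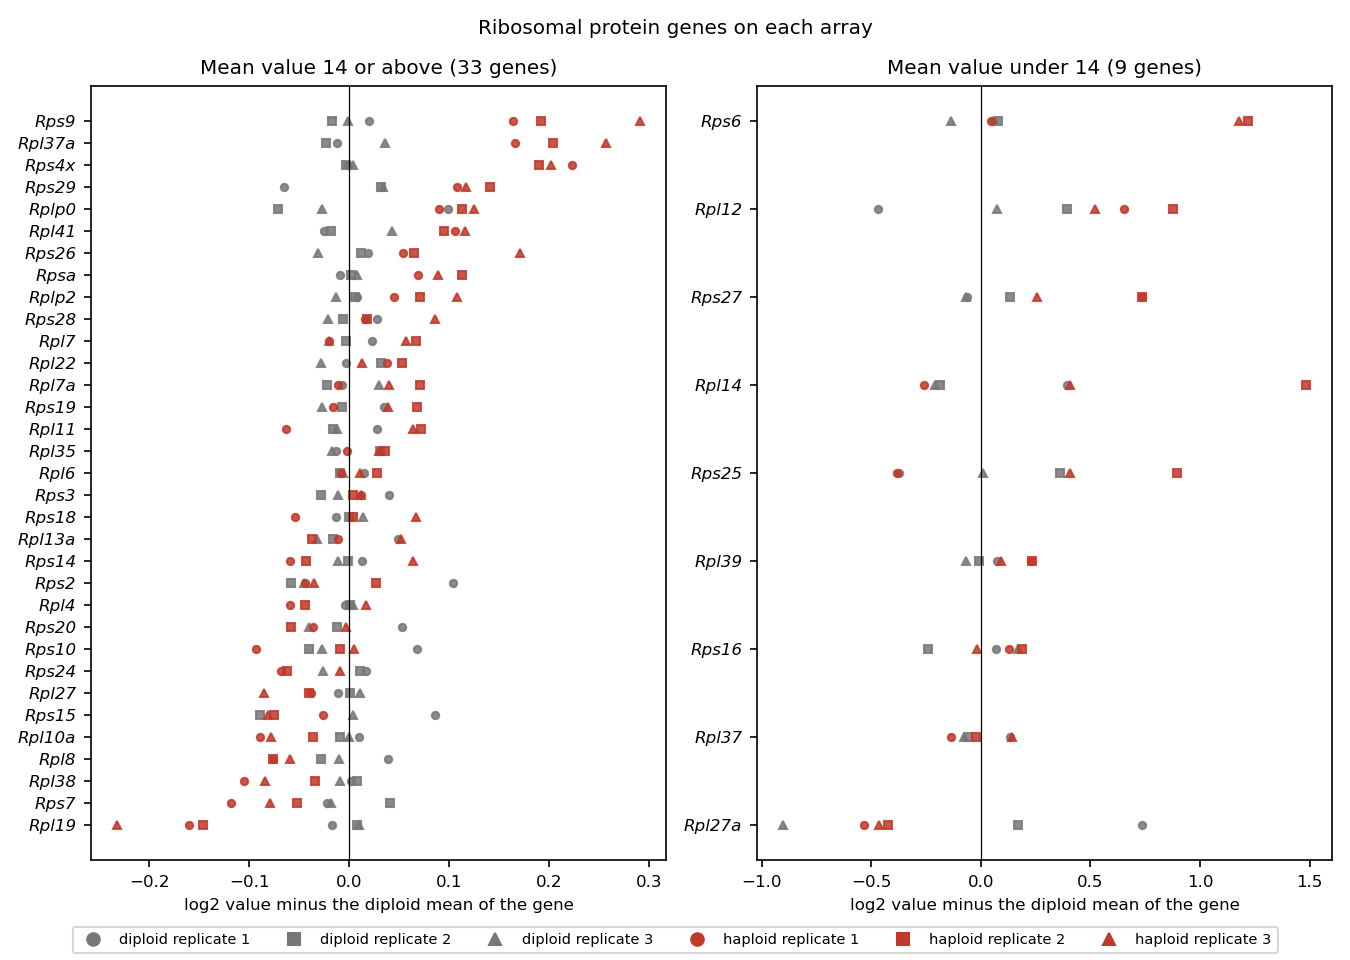
Log2 value of each of the 42 ribosomal protein genes on each of the 6 arrays, minus the mean of the 3 diploid arrays of that gene, with genes in order of the group difference. Grey symbols are diploid and red symbols haploid replicates, and the panels split genes by a mean log2 value of 14 and have different horizontal scales. Most genes on the left lie within 0.1 of the diploid mean on every array, and the genes on the right spread more widely.

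Haploid and diploid values separated about as often in these genes as in all genes. Haploid and diploid values did not overlap for 17 of the 42 genes (40.5%), against 37.9% of all genes. In 11 of them all haploid values were above all diploid values, where 17.7% of all genes behaved so: Rps4x, Rps9, Rps26, Rps27, Rps29, Rpsa, Rpl12, Rpl37a, Rpl39, Rpl41 and Rplp2. In 6 they were below, against 20.2% of all genes: Rpl8, Rpl10a, Rpl19, Rpl27, Rpl38 and Rps7. The share without overlap was thus near that of all genes, and it set no direction for the family as a whole.

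Most of the genes lay near the top of the scale. The brightest probe sets of 33 genes had means of 14 or above, with values from 14.2 to 15.0 on single arrays, while the highest value of the whole table was 15.2 and the median gene stood at 7.48. Such a value is the brightness of a probe set and not an amount of RNA per gene. Across all genes the differences shrank toward this end of the scale. The median size of the difference was 0.25 for 2788 genes with means of 10 to 12, 0.15 for 208 genes of 13 to 14 and 0.079 for 75 genes of 14 or above, of which 22.6%, 13% and 4% passed. The 75 genes include the 33 ribosomal protein genes, and without them the median size was 0.12. Whether signal is compressed at the top was not tested. In bulk RNA, fewer cells of a type and less RNA per cell cannot be told apart.

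Within the group of 33 bright genes, differences ran from -0.18 (Rpl19) to 0.22 (Rps9) with a median size of 0.047, and none passed. All 33 95% confidence intervals lay between -0.38 and 0.42. The 42 other genes at that level had a median size of 0.12 and 3 passed. The replicates of the bright genes were very close, with a median residual SD of 0.034 (log2), whereas limma's moderated SD, drawn toward a prior SD of 0.15 from all genes, had a median of 0.10. Fitted with a prior that follows the level and is robust to outlying genes, 5 of the 42 genes passed (11.9%), against 15.6% of all genes. Of the 75 genes at 14 or above 10 passed in that fit, 4 of the 33 ribosomal protein genes and 6 of the 42 others. The 5 ribosomal protein genes were Rps27, Rps4x, Rps9 and Rpl37a as higher and Rpl19 as lower, and of these only Rps27 was not a bright gene. The calls among bright genes thus depend on how the spread is modelled, while the differences themselves are the same in both fits.

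**Figure D2:**
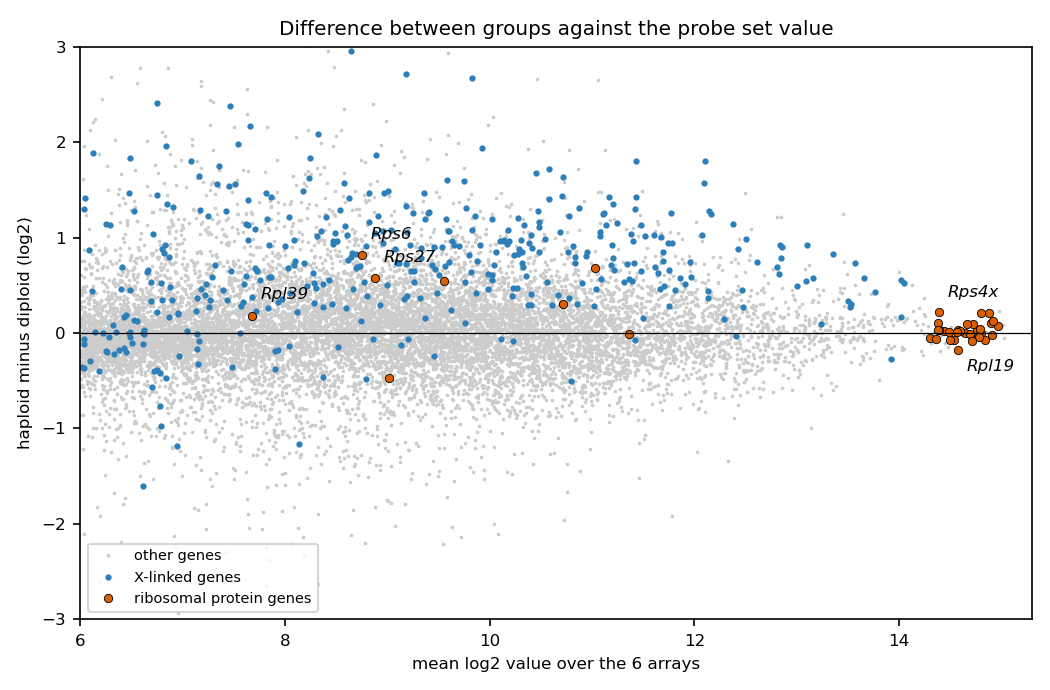
Haploid minus diploid difference (log2) against the mean log2 value over the 6 arrays, for genes with a mean of 6 or above; 20 genes with a difference beyond 3 lie outside the axis. Ribosomal protein genes are orange, X-linked genes blue and other genes grey, and 33 of the orange points lie at 14 or above, close to 0.

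The gene that passed was Rps27, a small-subunit protein with a zinc finger. It stood at 8.53, 8.73 and 8.53 in diploid replicates 1 to 3 and at 9.33, 9.33 and 8.85 in the haploid lines, with no overlap and HTG1 nearest to the diploid samples. On this probe set the haploid lines were 1.49-fold higher (log2 difference 0.58 ± 0.15, SE, with 3 arrays in each group; limma adjusted p = 0.0482). Its mean was 8.88, far below the bright genes. A probe set at 14 or above listed Rps27 together with other symbols, and its difference is not given here. The call was at the edge of the threshold: it held without HTG1 (0.73, limma adjusted p = 0.0147) and did not hold without any one of the other 5 arrays (limma adjusted p = 0.0903 to 0.15). Its paralog Rps27l, on another chromosome, had values of 13.8, 13.8 and 13.7 in the diploid and 14.1, 14.1 and 13.9 in the haploid lines. That difference, 0.30 ± 0.10, did not pass (limma adjusted p = 0.0864) but did with the prior that follows the level (0.0335). In both genes HTG1 was the lowest haploid line.

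Both X-linked members had all haploid values above all diploid values, as did 17.7% of all genes. Rps4x, a small-subunit protein whose gene lies on the X chromosome, stood at 14.70, 14.70 and 14.70 in the diploid and at 14.92, 14.89 and 14.90 in the haploid lines. The difference was 0.21 ± 0.08 (1.15-fold, 95% interval 0.013 to 0.40), with a limma adjusted p of 0.139, or 0.0194 with the prior that follows the level. Averaging its probe sets gave -0.04. Rpl39, a short protein that lines the exit tunnel of the large subunit, stood at 7.66, 7.58 and 7.52 in the diploid and 7.82, 7.82 and 7.68 in the haploid lines. Its difference was 0.18 ± 0.09 (95% interval -0.037 to 0.40, limma adjusted p = 0.229).

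The 297 X-linked genes above the median level had a median difference of 0.77, above the upper bounds of both intervals. The median was 0.35 for 132 X-linked genes with means of 6 to 8, where Rpl39 lies, and this is inside the interval of Rpl39. For the 4 X-linked genes at 14 or above it was 0.37. Rps4x is itself among these 4, so that median is no separate reference for Rps4x. With each chromosome's median shift subtracted, whatever the level, Rps4x differed by -0.56 (limma adjusted p = 0.00771) and Rpl39 by -0.59 (limma adjusted p = 0.0109). Between these levels the X-linked median was higher, at 0.81 for 123 genes with means of 8 to 10, 0.85 for 106 genes of 10 to 12 and 0.49 for 13 genes of 13 to 14. The 4 X-linked genes at 14 or above were Rps4x, the glycolytic enzyme Pgk1 (0.55 ± 0.11), the mitochondrial ADP/ATP carrier Slc25a5 (0.53 ± 0.11) and Bex1 (0.17 ± 0.15), named after their values were seen. The differences of Pgk1 and Slc25a5 lay above the upper bound of the Rps4x interval, and that of Bex1 lay inside it. Pgk1 and Slc25a5 passed with all 6 arrays, and each missed the threshold once diploid replicate 2, diploid replicate 3 or HAP2 was left out (limma adjusted p = 0.0615 to 0.0731).

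The 3 members on chromosome 11 had all haploid values below all diploid values, as did 20.2% of all genes. Genes of chromosome 11 above the median level had a median difference of -0.27 over 792 genes. Rpl19, a large-subunit protein at a bridge to the small subunit, stood at 14.65, 14.68 and 14.68 in the diploid and 14.51, 14.52 and 14.44 in the haploid lines. Its difference was -0.18 ± 0.08 (1.13-fold lower, limma adjusted p = 0.195, or 0.0449 with the prior that follows the level). Rpl38, known for its part in translating Hox messages, differed by -0.07 ± 0.08 and Rpl27 by -0.05 ± 0.08 (limma adjusted p = 0.576 and 0.688). Other probe sets of Rpl27, with means of 13.32 and 13.31, differed by -0.28 and -0.24. In both, all haploid values were below all diploid values, and neither passed when every probe set was tested on its own. After subtraction of chromosome shifts the differences of the brightest probe sets of Rpl19, Rpl38 and Rpl27 were 0.09, 0.19 and 0.21, and none passed. No member lay on chromosome 8.

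Among the autosomal members with higher haploid values, Rps9 and Rpl37a had the largest differences at the bright end. Rps9, a small-subunit protein, stood at 14.31, 14.27 and 14.28 in the diploid and 14.45, 14.48 and 14.58 in the haploid lines (0.22 ± 0.09, limma adjusted p = 0.143, or 0.0355 with the prior that follows the level). Rpl37a, a zinc-finger protein of the large subunit, stood at 14.76, 14.75 and 14.81 and at 14.94, 14.98 and 15.03 (0.21 ± 0.08, limma adjusted p = 0.145, or 0.0263). In both of these probe sets HTG1 had the highest value. Another bright probe set of Rpl37a, with a mean of 14.36, differed by 0.08 with overlapping groups (limma adjusted p = 0.594 with every probe set on its own). The 4 members with the highest means were Rplp2, a protein of the flexible stalk that recruits elongation factors, Rps29, Rps2 and the very short Rpl41. Rplp2 differed by 0.07 ± 0.08, Rps29 by 0.12 ± 0.09, Rps2 by -0.02 ± 0.09 and Rpl41 by 0.11 ± 0.08, and their limma adjusted p-values lay between 0.371 and 0.915. Rps2 alone of these overlapped, with diploid replicate 1 (15.03) above all other arrays. Other bright probe sets of Rps29 differed by 0.10 without overlap and by -0.01 with overlapping groups.

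The 9 members with means below 14 differed more, from -0.47 to 0.81, and varied more within groups. The median size of their differences was 0.47, and 7 of the 9 differences were positive. All genes with means of 8 to 10 and of 10 to 12 had median sizes of 0.28 and 0.25. Rps6, the substrate of the S6 kinases, stood at 8.40, 8.43 and 8.21 in the diploid samples and at 8.39, 9.57 and 9.53 in HAP1, HAP2 and HTG1. HAP1 was at the diploid level and the other haploid lines more than 1 above it (0.81 ± 0.31, limma adjusted p = 0.12; without HAP1 1.20, limma adjusted p = 0.00427). Rpl12, at the base of the stalk, stood at 10.2, 11.1 and 10.8 and at 11.3, 11.6 and 11.2 (0.68 ± 0.22, limma adjusted p = 0.0831; without diploid replicate 1 0.45, limma adjusted p = 0.12). Rpl14, a large-subunit protein, stood at 9.68, 9.10 and 9.07 and at 9.03, 10.8 and 9.69. Rps25, a small-subunit protein needed by several viral internal entry sites, stood at 10.19, 10.92 and 10.57 and at 10.18, 11.46 and 10.97.

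Without HAP2 the difference was 0.07 in Rpl14 and 0.01 in Rps25, and without HAP1 0.95 and 0.65, and none of these passed. In Rps6, Rpl14 and Rps25 HAP1 had the lowest and HAP2 the highest haploid value, and in all 3 genes the groups overlapped. Rpl27a was spread over the diploid arrays instead, at 9.98, 9.42 and 8.35, with haploid values of 8.72, 8.82 and 8.78. Its difference of -0.47 ± 0.37 did not pass (limma adjusted p = 0.425), and it ranged from -0.92 without diploid replicate 3 (limma adjusted p = 0.0484) to -0.11 without diploid replicate 1 (0.844). Rps16 was dim on all arrays, between 3.37 and 3.79, and has no interpretable difference. For all 9 genes the array also held a probe set of 14.3 or above that listed the symbol together with others. The 110 probe sets of that mixed kind had a median difference of 0.00042, and 2 of them (1.82%) passed when every probe set was tested on its own. At 14 or above there were 71 of them, with differences from -0.24 to 0.58, and 1 of these passed.

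Across single-symbol probe sets, levels within a gene were far apart while differences were small at the top. Of the 94 probe sets, 56 had means of 14 or above, 8 of 12 to 14 and 30 below 12, and 12 of the 22 genes with several probe sets held a pair more than 4 apart. Tested on their own, 2 of 94 passed (2.13%), against 11.3% of all probe sets, and both lay below 12. One was a probe set of Rpl37a, at 9.32, 9.99 and 9.45 in the diploid and 10.5, 10.6 and 10.3 in the haploid lines (0.88, limma adjusted p = 0.0305), with the sign of the brightest Rpl37a probe set. The other belonged to Rpl35, at 6.42, 6.77 and 6.87 and at 7.63, 7.65 and 7.09 (0.77, limma adjusted p = 0.0438), where the brightest probe set differed by 0.02 ± 0.08. Of the single-symbol probe sets none at 14 or above passed, and their differences ran from -0.18 to 0.22. Rps4x had a dim probe set at 6.49 to 6.98 with a difference of -0.28, opposite in sign to the bright one and with overlapping groups.

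**Figure D3:**
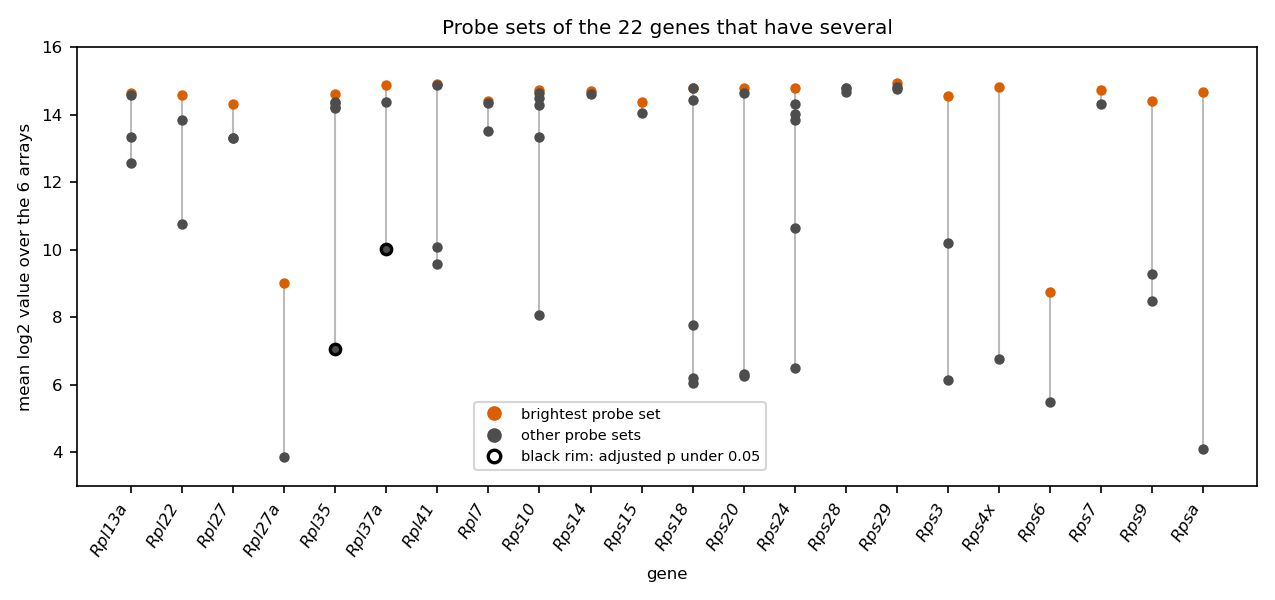
Mean log2 value over the 6 arrays of each probe set of the 22 ribosomal protein genes that have several, with the brightest in orange. A black rim marks the 2 probe sets with an adjusted p under 0.05 among all probe sets, in Rpl35 and Rpl37a, and both are far below the brightest one of their gene.

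A probe set of Rps9 separated HTG1 from all other arrays. It stood at 8.63, 8.23 and 8.35 in the diploid samples, at 8.27 in HAP1 and 8.45 in HAP2, and at 13.7 in HTG1. The brightest Rps9 probe set gave 14.58 in HTG1 against 14.27 to 14.48 elsewhere, and the remaining one 8.70 in HTG1 against 6.99 to 8.99. With 1 array of this line there is no replicate of the value, and HTG1 also differs in strain background. No other probe set of the family that was not the brightest of its gene had a haploid value more than 2 above the highest diploid value.

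**Figure D4:**
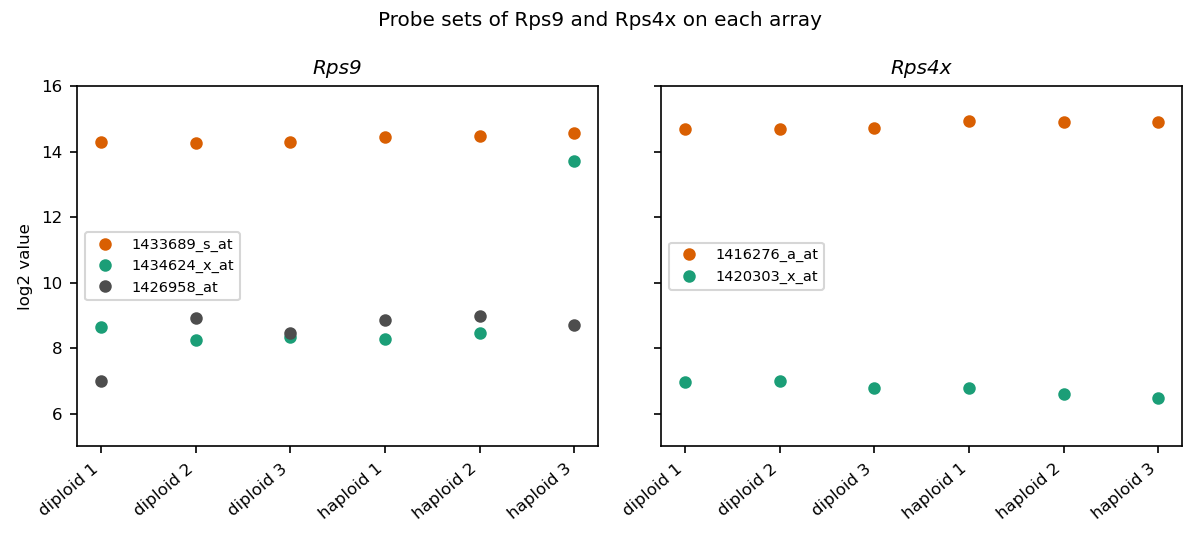
Log2 values of the 3 probe sets of Rps9 and the 2 of Rps4x on each array. In Rps9 the green probe set is near 8 on 5 arrays and at 13.7 on haploid replicate 3, and in Rps4x the bright probe set is higher on every haploid array while the dim one overlaps between groups.

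Over the family as a whole the spread within groups was close to the distance between them. The median of the 42 genes, each centred over the 6 arrays, was 0.013, -0.025 and -0.030 in diploid replicates 1 to 3 and -0.016, 0.029 and 0.027 in HAP1, HAP2 and HTG1. The group means were -0.014 ± 0.024 and 0.013 ± 0.026 (SD, n = 3 each). HAP1 lay near the diploid mean, and diploid replicate 1 lay at the haploid mean. Among the 33 bright genes HTG1 had the highest value in 11, HAP2 in 9 and diploid replicate 1 in 8, while HAP1 had the lowest in 10 and diploid replicate 2 in 9. On the log2 scale, the 3' control probe set for beta-actin exceeded the 5' one by 0.34 to 0.46 in the diploid and 0.18 to 0.24 in the haploid samples, and the part of this RNA measure in these values was not tested.

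Other translation genes were read from lists chosen with earlier results of these data known. Over all genes 14.9% passed, and 7.92% passed as higher. Of 6 paralogs of ribosomal proteins none passed: Rpl3l, Rpl7l1, Rpl22l1, Rpl39l and Rps4l differed by -0.31, 0.10, -0.06, -0.05 and 0.15, besides Rps27l. Fau, the fusion gene of a small-subunit protein, and Rps3a1, which the symbol rule left out, differed by 0.08 and -0.03. Of 9 elongation and other TOP genes none passed, with differences from -0.22 to 0.16, among them the elongation factor Eef1a1 (-0.05) and Tpt1 (0.01). Of 23 initiation factors 1 was higher and 1 lower, with a median of 0.0037. Eif4b, a cofactor of the cap-binding helicase, fell 1.5-fold (-0.58 ± 0.09, limma adjusted p = 0.00986), and Eif2s3x, an X-linked subunit of the factor that carries the initiator tRNA, rose 1.61-fold. Relative to the shift of the X chromosome Eif2s3x differed by -0.08.

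**Figure D5:**
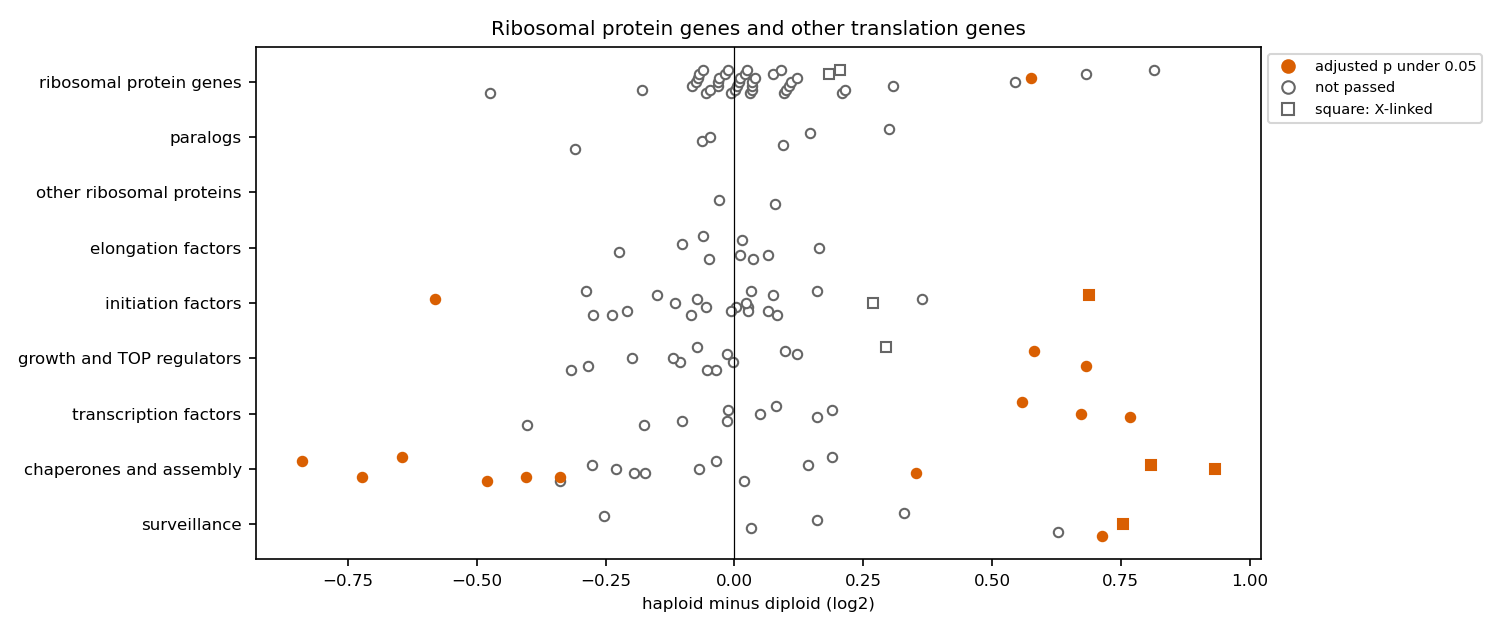
Haploid minus diploid difference (log2) of each measured gene, by list. Filled orange symbols have an adjusted p under 0.05 and squares are X-linked; ribosomal protein genes and elongation factors cluster at 0, and genes for chaperones and assembly lie on both sides.

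Of 15 growth and TOP regulators 2 were higher and none lower, with a median of -0.04, a share near the 14.9% of all genes that passed. Eif4ebp2, a repressor of cap-dependent translation, rose 1.6-fold (0.68 ± 0.11, limma adjusted p = 0.0105) and the S6 kinase Rps6kb2 1.5-fold (0.58 ± 0.10, limma adjusted p = 0.0123, and 0.0509 without diploid replicate 2). Averaged over its probe sets Eif4ebp2 differed by 0.26 and did not pass. Of 12 transcription factors known at ribosomal protein promoters 3 were higher and none lower, with a median of 0.07. Among all genes 7.92% passed as higher. Max, the partner of Myc, rose 1.7-fold (0.77 ± 0.11, limma adjusted p = 0.00744) and Gabpb1, a subunit of GABP, 1.47-fold (0.56 ± 0.09). E2f1, a cell cycle factor, rose 1.59-fold (0.67 ± 0.17), and missed the threshold once diploid replicate 2, diploid replicate 3, HAP1 or HAP2 was left out (limma adjusted p = 0.0872 to 0.131). With the mean of their probe sets Gabpb1 and E2f1 differed by 0.26 and 0.33 and did not pass.

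Chaperones of single ribosomal proteins and late assembly factors differed in both directions. Of 19 genes 3 were higher and 6 lower, with a median of -0.20, where 14.9% of all genes passed in either direction and 7.92% as higher. Heatr3, which serves the import of ribosomal proteins, fell 1.79-fold (-0.84 ± 0.11, limma adjusted p = 0.005), the assembly factor Tsr1 1.65-fold and the nuclease Nob1, which finishes the small-subunit RNA, 1.56-fold. All 3 lie on chromosomes 8 or 11, and all 5 measured genes of the list on these chromosomes fell, with Pno1 and Znhit3 as the others. The share of all genes on these chromosomes that fell is not given here. Genes of chromosome 11 above the median level had a median difference of -0.27. Values of Heatr3, Tsr1 and Nob1 with chromosome shifts subtracted are not given here. Pno1 failed without any one array but HAP1 (limma adjusted p = 0.06 to 0.123) and Znhit3 without diploid replicate 2 or 3, HAP2 or HTG1 (0.0671 to 0.105). With chromosome shifts subtracted they differed by -0.21 and -0.14 and did not pass. Tsr2, the X-linked escort of Rps26, rose 1.91-fold (0.93 ± 0.10, limma adjusted p = 0.00288) and the X-linked GTPase Gnl3l 1.75-fold. With chromosome shifts subtracted Tsr2 differed by 0.16 and Gnl3l by 0.04, and neither passed. Aamp, a relative of the yeast chaperone of Rpl10, rose 1.28-fold and Bccip, the chaperone of Rpl23, fell 1.26-fold. Without one array, Aamp failed in 5 of 6 cases (limma adjusted p = 0.0991 to 0.138) and held without diploid replicate 1, and Bccip failed in all 6 (0.076 to 0.137). Rps26, the client of Tsr2, differed by 0.10 ± 0.09.

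Free ribosomal proteins bind Mdm2, the ligase that destroys p53. Of 7 genes for the surveillance of ribosomal proteins 2 were higher and none lower, with a median of 0.33. Among all genes 7.92% passed as higher. Mdm2 rose 1.64-fold (0.71 ± 0.12, limma adjusted p = 0.0114), and missed the threshold once diploid replicate 3 was left out (0.0534) and when its probe sets were averaged (0.31, 0.0774). The X-linked ubiquitin ligase Huwe1 rose 1.69-fold and differed by -0.02 relative to the shift of the X chromosome.

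The cells carried ES markers on every array. The mean of 10 ES cell markers was 12.7 to 12.9 (log2) on the 6 arrays. In the haploid lines 3 of 10 were higher and none lower, where 7.92% of all genes passed as higher and 14.9% in either direction. The mean of 12 fibroblast and mesenchymal markers was 7.62 in diploid replicate 1, 6.87 and 6.92 in the other diploid samples and 6.36 to 6.57 in the haploid lines, with 2 lower and 1 higher. Their part in the results was not tested. The median log2 value of all probe sets was 6.31 to 6.34 on the 6 arrays.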

How the data were processed

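For 3 haploid and 3 diploid samples, the authors deposited log2 values of each probe set, computed with RMA per the submitters' processing notes; its settings are not given in the sources used here. Quantile normalization, as RMA generally applies, hides any change in total RNA. Of 45101 probe sets 64 controls were left out of tests. The platform annotation gave 34945 probe sets 1 symbol, 932 several and 9160 none. All 42 genes matched RefSeq (GRCm38.p6) through Entrez numbers, which gave chromosomes; promoters came from RefSeq too.

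A model of the 2 group means was fitted in R 4.3.3 with limma 3.58.1 (lmFit and eBayes, two-sided, Benjamini-Hochberg over all genes, adjusted p under 0.05). Every adjusted p is from limma, SE is the moderated standard error, and the number of arrays limits precision. No sets of genes were tested. The limma fit, and no other step, was tested on simulated data, with planted differences larger than those of the bright ribosomal protein genes.

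Named genes were the X-linked members, up to 10 passing members in each direction, the 4 with the highest means, members whose probe sets passed in opposite directions or that passed with a range over 0.8 within a group, all measured paralogs and, per list, 3 passing genes or the 2 brightest. This gave 7 members and 22 list genes; 21 others (such as Rpl19, Rps9, Rps6 and Rpl37a) were chosen after their values were seen. Members and lists were chosen with earlier results of these data known. Alternatives were other normalizations, a level filter, other probe set choices, other variance models, array weights, chromosome shifts subtracted, and each array left out.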

Additional observations from a re-analysis of the deposited data

Results flagged for a closer look

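A probe set of Rps9 that was not used for the gene reached 13.7 (log2) on the array of HTG1, while the diploid samples stood at 8.63, 8.23 and 8.35 and HAP1 and HAP2 at 8.27 and 8.45. It drew attention because this signal lies outside the main measurement and above the diploid level. The _x_at ending of its name marks possible matches to several transcripts, and the value rests on 1 array.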

How the results depend on the processing

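No paired analysis was possible because the haploid labels carry line names and no replicate numbers. The 14.9% of all genes that passed were 2707, 5098 with every probe set on its own, and 970 to 2428 with each array left out (970 without diploid replicate 3). The count of ribosomal protein genes that passed, 1, became 0 under quantile normalization, 2 with the mean of probe sets (Rpl37a, Rps27), without _x_at and _s_at probe sets (Rps24, Rps27), with every probe set (of 94) and with chromosome shifts subtracted (Rpl39, Rps4x, both lower), 5 with trend and robust, 4 with trend alone (chosen after the data were examined), and 0 to 1 with each array left out. Their median difference was -0.0527 with chromosome shifts subtracted and 0.0133 to 0.0527 with each array left out. Of the named genes' values under alternatives, 699 kept direction and side of the threshold, 56 lost and 14 gained the threshold, and 26 turned. With chromosome shifts subtracted these were Rpl39 (-0.59), Rps4x (-0.56), Rplp2 (-0.0206), Rps29 (-0.0089), Rpl35 (-0.0587), Rpl19 (0.0878), Rpl38 (0.19), Rpl27 (0.21), Eif2s3x (-0.0812), Huwe1 (-0.0159), Pgk1 (-0.22), Slc25a5 (-0.24) and Bex1 (-0.60). With the mean of probe sets these were Rps4x (-0.0359), Rpl7l1 (-0.0697) and Rps24 (0.10); without _x_at and _s_at probe sets Rps24 (0.90); with array weights Rps2 (0.0209) and Rpl22l1 (0.0045). With each array left out, Rps2 ran from -0.0467 to 0.0342, Rpl22l1 from -0.128 to 0.056, Rpl39l from -0.325 to 0.162 and Tpt1 from -0.0046 to 0.0322. Rps27 had an adjusted p of 0.0775 under quantile normalization, 0.0543 with chromosome shifts subtracted, 0.0554 with every probe set and 0.0514 with trend alone. Except where fewer arrays or other probe sets entered, the cause was not tested. Signal over background was not analysed here.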
